A study of Mus musculus with 18 samples.

Results

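The Slit, Robo and netrin axon guidance genes were examined in a list of accessible chromatin sites from cultured mouse cortical neurons. The 10 members are 4 genes for secreted ligands (Slit1, Slit2, Slit3 and Ntn1) and 6 for receptors (Robo1, Robo2, Robo3, Robo4, Dcc and Unc5d), among 21774 nuclear protein-coding genes. Every peak that touched a member gene or the 10 kb on either side of it was taken, which gave 496 of 211682 consensus peaks. All 10 members had at least 1 such peak, against 85.5% of protein-coding genes. That share is not matched for gene length. Of the members, 8 are of 100 kb or more, a class in which only 3.63% of genes had at most 3 peaks. The authors' score was below its ceiling of 1000 for 7 of the 496 (1.41%), against 1.53% of nuclear peaks, so it does not rank them. Open DNA was tagged with Tn5 transposase (ATAC-seq, paired reads of 50 bp) in cortical neurons cultured from CD1 embryos at E14.5 to E15. The 18 samples carried lentiviral pairs of shRNAs, namely shOpa1 with shAtf4 in 5, shOpa1 with shScrambled in 5, shControl with shAtf4 in 3 and shControl with shScrambled in 5. All received cytosine arabinoside (2 µM), which kills dividing cells, and were transduced on day 6 and collected on day 11 in culture. Opa1 fuses the inner mitochondrial membrane and Atf4 is a transcription factor of the integrated stress response, so the groups cross loss of one with loss of the other. The peak list is a single consensus with no value for a sample or a group and no read depth. No knockdown could therefore be compared with its control, no value has a replicate, and the results describe the sites of the list as a whole. These are bulk cultures, in which a site open in a few cells of another type cannot be told apart from a site weakly open in many. Coordinates are those of mm10, counted from 1.

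Slit proteins are secreted repellents that bind Robo receptors on growing axons and migrating cells. In the forebrain they keep cortical axons and interneurons out of territories such as the midline. Netrin-1, encoded by Ntn1, attracts axons through Dcc and repels them through receptors of the Unc5 family, of which Unc5d is expressed in migrating cortical neurons. Robo3 acts in commissural axons and, in mammals, does not bind Slits with high affinity. Robo4 is known from endothelial cells, where it stabilises vessels, and it served here as the contrast to the neuronal members.

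The promoter letters are shown first, because the starts of transcription hold some of the widest peaks of the members. RefSeq promoter windows (GRCm38.p6, 250 bases before to 50 after a start) were found for 6 members with 8 starts, of which Robo2 has 3. Slit1, Ntn1, Dcc and Unc5d were not matched. Of the 8 starts, 7 lay in a consensus peak, against 61.1% of RefSeq starts of protein-coding genes, and the start of Robo4 was the exception. The 3 Robo2 starts are not separate members, and the share is not matched for gene length, so the count is a description only. Shown are the start with the widest peak (Slit2), the 3 starts of Robo2 from the outermost to the innermost, the start of Robo3, and last that of its neighbour Robo4. Each runs 5′ to 3′ on the strand of the gene, and capitals mark CpG dinucleotides, the sites of DNA methylation that cluster in CpG-island promoters.
Slit2, chr5:47982905-47983204, plus strand: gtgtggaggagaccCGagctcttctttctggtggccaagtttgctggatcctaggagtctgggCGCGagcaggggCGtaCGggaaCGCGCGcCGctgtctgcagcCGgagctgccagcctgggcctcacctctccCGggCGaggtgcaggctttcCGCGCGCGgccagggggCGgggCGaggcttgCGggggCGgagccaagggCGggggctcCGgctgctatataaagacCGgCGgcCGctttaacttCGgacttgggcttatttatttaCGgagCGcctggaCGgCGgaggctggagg
Robo2 outer start, chr16:75447244-75447543, minus strand: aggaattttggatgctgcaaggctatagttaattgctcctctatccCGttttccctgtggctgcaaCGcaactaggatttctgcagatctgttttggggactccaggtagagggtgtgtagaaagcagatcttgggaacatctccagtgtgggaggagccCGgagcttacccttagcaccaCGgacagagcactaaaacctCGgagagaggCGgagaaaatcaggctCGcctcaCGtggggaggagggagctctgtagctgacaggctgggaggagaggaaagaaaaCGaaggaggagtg
Robo2 middle start, chr16:75092721-75093020, minus strand: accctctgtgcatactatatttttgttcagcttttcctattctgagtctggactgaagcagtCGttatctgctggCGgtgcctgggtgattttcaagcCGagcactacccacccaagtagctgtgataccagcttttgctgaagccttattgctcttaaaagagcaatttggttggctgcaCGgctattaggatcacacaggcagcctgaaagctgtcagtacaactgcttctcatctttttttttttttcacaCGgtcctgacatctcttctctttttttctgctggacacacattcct
Robo2 inner start, chr16:74411776-74412075, minus strand: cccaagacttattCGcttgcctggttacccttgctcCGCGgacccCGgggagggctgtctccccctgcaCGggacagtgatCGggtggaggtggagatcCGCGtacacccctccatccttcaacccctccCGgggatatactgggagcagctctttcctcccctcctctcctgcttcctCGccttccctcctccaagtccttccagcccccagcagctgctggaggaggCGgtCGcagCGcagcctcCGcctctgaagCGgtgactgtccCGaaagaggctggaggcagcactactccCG
Robo3, chr9:37433126-37433425, minus strand: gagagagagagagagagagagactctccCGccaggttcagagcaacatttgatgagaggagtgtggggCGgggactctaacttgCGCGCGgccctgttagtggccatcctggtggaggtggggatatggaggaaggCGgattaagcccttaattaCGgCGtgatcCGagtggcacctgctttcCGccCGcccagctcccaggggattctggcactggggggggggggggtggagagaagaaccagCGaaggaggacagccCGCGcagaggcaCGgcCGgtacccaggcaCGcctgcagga
Robo4, chr9:37401722-37402021, plus strand: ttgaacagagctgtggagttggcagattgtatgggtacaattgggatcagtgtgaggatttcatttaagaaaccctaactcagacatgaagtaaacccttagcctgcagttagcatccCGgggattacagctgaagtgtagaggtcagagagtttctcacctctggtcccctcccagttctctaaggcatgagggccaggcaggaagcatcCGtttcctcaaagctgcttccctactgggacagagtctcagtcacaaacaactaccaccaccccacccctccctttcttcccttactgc

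The Slit2 window holds 30 CpG, the Robo3 window 17 and the Robo4 window 2, against a median of 7 over 32851 RefSeq promoters. The Robo2 windows hold 9 at the outer, 5 at the middle and 17 at the inner start. The windows of Slit3 (41 CpG) and of the inner start of Robo1 (15 CpG) are not printed. GC content was 68.0% for Slit2, 78.3% for Slit3, 57.0% for Robo1, 53.3%, 45% and 65.0% for the outer, middle and inner starts of Robo2, 63.3% for Robo3 and 50.3% for Robo4, against a median of 52.7%. All 300 bases lay under a peak for Slit2, Slit3, Robo1 and each Robo2 start, 262 did for Robo3, and 0 did for Robo4. The middle Robo2 start had a lower GC content than Robo4 and, with 5 CpG, lay under a peak of 1228 bp.

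A set of 8 short motifs was searched on both strands. The GC box GGGCGG was found at Slit2, Slit3 and Robo3 (3 of 8 windows, against 35.7% of all promoters), and only Slit2 held TATAAA (13.6% of all promoters), at position -28 from its start. The E-box CAGCTG was found at Robo4 and at the inner start of Robo2, against 16.3% of all promoters. None of the 8 windows held TGATGNAA, the core of the composite site of ATF4 with C/EBP factors (3.97% of all promoters), the cAMP response element TGACGTCA (1.79%), the AP-1 site TGANTCA (7.81%), the ETS motif CCGGAAG (8.86%) or the NRF1 motif (4.6%). A match is a match of letters only, and its absence concerns these windows alone.

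Ligand genes carried more peaks per length than receptor genes in sum, but the genes of the roles overlapped. The 4 ligand genes held 207 peaks in 1.32 Mb, or 15.7 peaks per 100 kb (exact Poisson 95% interval 13.6 to 18), and the 6 receptor genes held 292, of which 3 count for both Robo3 and Robo4, in 4.4 Mb, or 6.64 per 100 kb (5.90 to 7.45). The ratio was 2.36 (exact conditional interval 1.97 to 2.83). These intervals cover counting error only and treat peaks as placed independently, which neighbouring peaks are not. As medians over genes, ligands stood at 13.9 and receptors at 8.56 peaks per 100 kb, against 10.2 over all protein-coding genes. Ligand genes ranged from 6.64 (Slit2) to 36.0 (Slit1) and receptor genes from 5.14 (Robo2) to 21.4 (Robo3), so the ligand Slit2 lay below 4 of the 6 receptors. The ratio was 1.91 without Slit1 and 2.84 without Slit2. It is not matched for length or surroundings. Robo1, Robo2, Dcc and Unc5d exceed 500 kb, as does the ligand Slit3, and density was lower among such genes. Relative to the 500 kb on each side, ligands ranged from 0.719 (Ntn1) to 2.35 (Slit1) and receptors from 0.631 (Robo4) to 2.33 (Unc5d). Further pathway genes had the reverse order, with medians of 20.3 for ligands and 27.0 for receptors. Whether density goes with role was not tested.

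**Figure D1:**
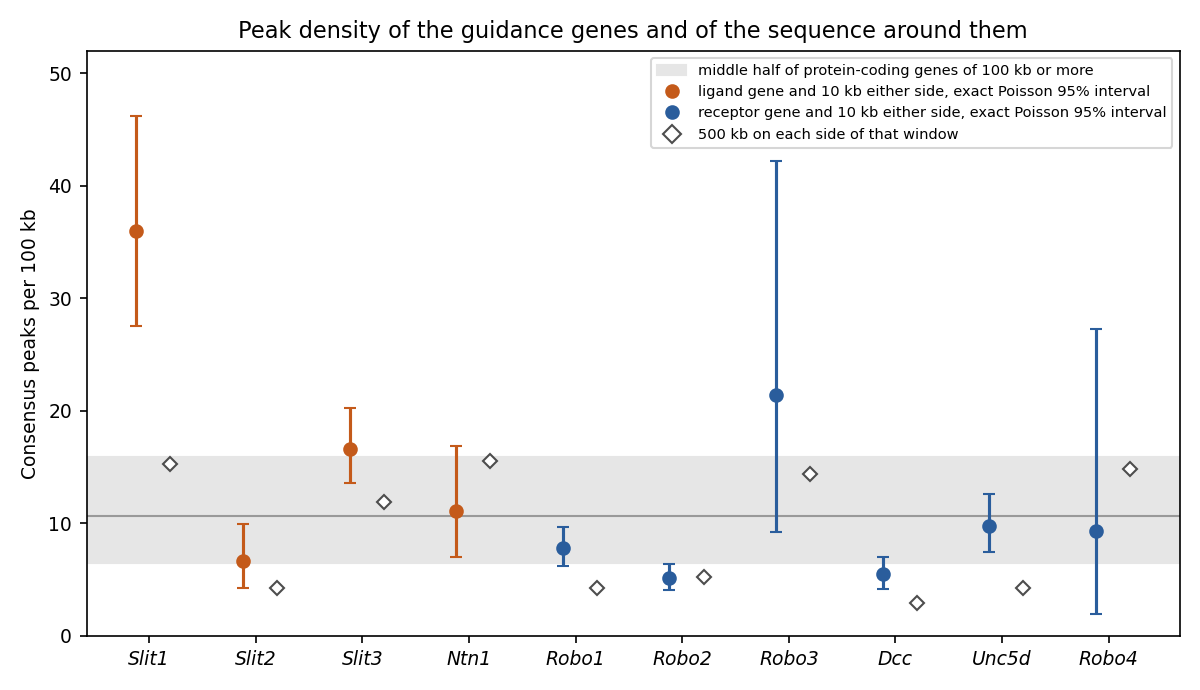
Consensus peaks per 100 kb in each gene and 10 kb either side (filled circles, bars are exact Poisson 95% intervals) and in the 500 kb on each side of that window (diamonds). The grey band spans 6.44 to 15.9, the quartiles of protein-coding genes of 100 kb or more, with their median of 10.6 as a line; Slit1 (36.0), Robo3 (21.4) and Slit3 (16.6) stand above it, and Robo2 (5.14) and Dcc (5.46) below it.

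Gene length differs widely among the members, so each was also placed among genes of its size class, as a description. Slit1 ranked 6 of 2427 protein-coding genes of 100 kb or more by peaks per length. The genes above it, chosen after their values were seen, were Nrxn2 (41.6 peaks per 100 kb), Sipa1l2 (37.8), Kif5c (37.0), Gnao1 (36.8) and Macrod1 (36.6). In the same class Slit3 ranked 555, Ntn1 1150, Unc5d 1327, Robo1 1632, Slit2 1801, Dcc 1953 and Robo2 1997. The class had a median of 10.6 peaks per 100 kb. Density was lower among the longest genes, with a median of 8.11 (quartiles 4.84 to 11.9) for the 227 genes of 500 kb or more. Among these Slit3 ranked 21, Unc5d 84, Robo1 118, Dcc 153 and Robo2 161, so Unc5d lay above the median of its length, Robo1 near it, and Dcc and Robo2 below it but inside the quartiles. Among 3910 genes of 10 to 20 kb, whose median was 12.1 peaks per 100 kb, Robo3 ranked 671 and Robo4 2391.

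Among the Slit genes, which encode proteins of the same domain plan, the density of peaks differed severalfold. Slit1 (chromosome 19, 41597824 to 41747275, 149.5 kb) held 61 peaks in its window, or 36.0 per 100 kb (95% interval 27.5 to 46.2). Slit3 (chromosome 11, 35121456 to 35708507, 587.1 kb) held 101 peaks, or 16.6 per 100 kb (13.6 to 20.2). Slit2 (chromosome 5, 47981291 to 48307735, 326.4 kb) held 23 peaks, or 6.64 per 100 kb (4.21 to 9.96). None of these 3 counting intervals overlaps another. The ratio was 2.16 for Slit1 over Slit3 (1.55 to 3.00), 5.42 for Slit1 over Slit2 (3.31 to 9.18) and 2.51 for Slit3 over Slit2 (1.58 to 4.13).

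The peaks of Slit1 were spread through the gene. They covered 19.9% of its window, against a median of 5.34% for protein-coding genes of 100 kb or more. The longest run of the gene without a peak was 8.7 kb, and 28 peaks had their midpoint in a single stretch of 50 kb that began 40.7 kb from the lower-coordinate end. Its widest peaks, 1426 bp (41742706 to 41744131) and 1190 bp (41717332 to 41718521), lay inside the gene, with midpoints 3.86 and 29.35 kb from the higher-coordinate end. Slit1 was also the only member with peaks within 1000 bp of both ends, which held for 20.6% of protein-coding genes. At the lower end a peak of 520 bp (41597377 to 41597896) covered the end and peaks of 192 and 885 bp followed inside the gene. At the higher end a peak of 480 bp began 30 bp beyond the gene, on the lncRNA gene Gm19424 that overlaps that end, and a peak of 284 bp lay inside. Of further lncRNA genes inside Slit1, Gm52407 overlapped 2 peaks and Gm34116 overlapped 4. The protein-coding gene Lcor, beside the lower-coordinate end, overlapped 1 peak of the window.

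Slit2 showed the opposite layout, with few peaks and a single very wide site at its start. The peak over the RefSeq start spanned 2896 bp (chromosome 5, 47982697 to 47985592), and 5 of 12996 starts of protein-coding genes that lay in a peak had a wider one. Over all nuclear peaks, 15 of 211674 were at least that wide, this peak included. The median peak over a start was 1165 bp. The next widest peak of Slit2, at 687 bp, lay outside the gene, and the median of its 23 peaks was 358 bp. A narrow peak of 222 bp lay 723 bp inside its outermost end. Further in, the gene held a run of 79.6 kb without a peak (24.4% of its length), and its higher-coordinate end had no peak within 21217 bp.

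Slit3 lay between them, with a start peak of 1391 bp (35120810 to 35122200), which was exceeded at 26.7% of covered starts, and with peaks through the gene. Its densest 50 kb began 161.8 kb from the start and held 15 of the 100 peaks of the gene. The lncRNA gene Gm46277 there overlapped 13 peaks, and Gm46278, Gm33453 and Gm39705 overlapped 4, 2 and 1. The last 27.4 kb of Slit3 had no peak, and the nearest to its higher-coordinate end was 17875 bp away.

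**Figure D2:**
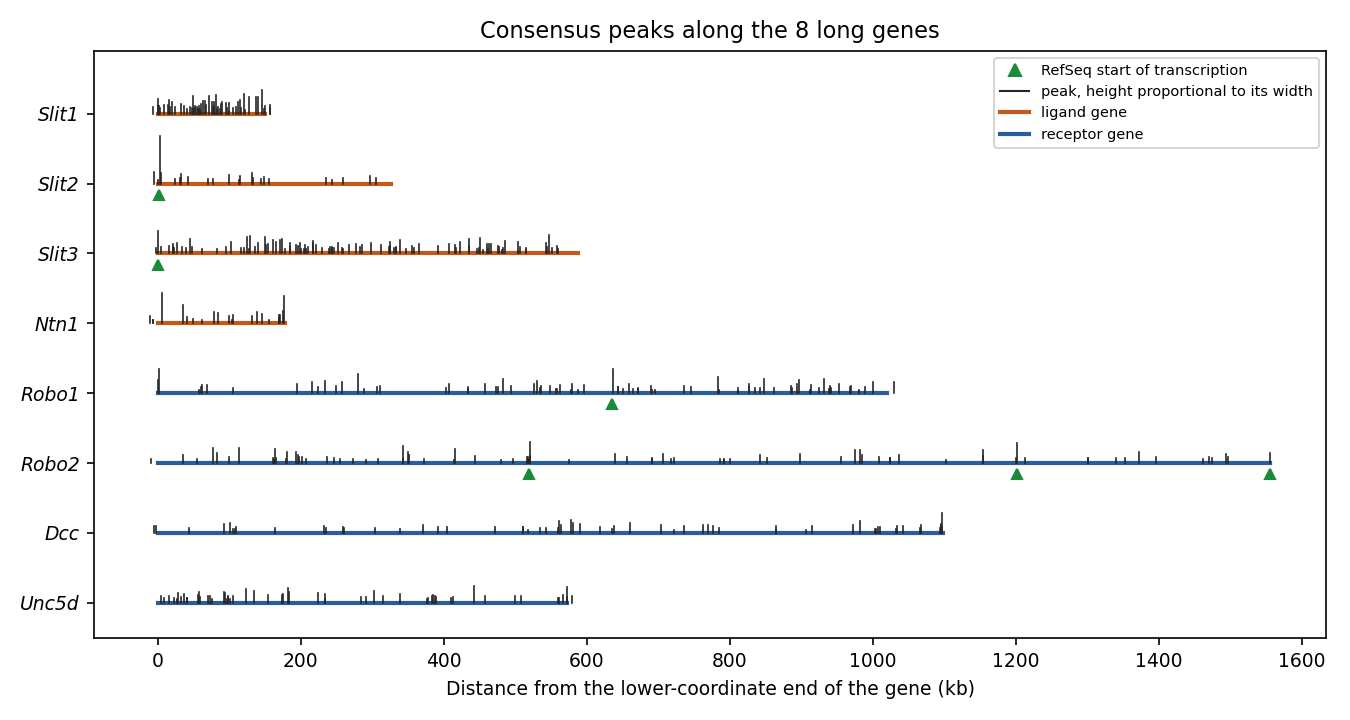
Positions of consensus peaks along the 8 members of 100 kb or more, in kb from the lower-coordinate end of each gene, with the height of each line proportional to peak width and triangles at RefSeq starts. Slit1 is filled along its length, Slit2 has a 2896 bp peak at its start and few others, and each Robo2 start stands at a peak.

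Slit2 and Slit3 are also the host genes of a microRNA family. Mir218-1 lies in Slit2 and Mir218-2 in Slit3, and both give the same mature miR-218-5p, while their 3p strands differ. The mature sequences, with the seed (bases 2 to 8) in capitals, show this.
mmu-miR-218-5p: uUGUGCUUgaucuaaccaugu
mmu-miR-218-1-3p: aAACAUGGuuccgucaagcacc
mmu-miR-218-2-3p: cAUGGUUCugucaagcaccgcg
Neither hairpin overlapped a peak. The nearest peak lay 1479 bp from Mir218-1 (chromosome 5, 48223942 to 48224051) and 7745 bp from Mir218-2 (chromosome 11, 35616816 to 35616925), so at the hairpins themselves the list holds no accessible site.

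Ntn1 (chromosome 11, 68209364 to 68386826, 177.5 kb) encodes the netrin ligand of Dcc and Unc5 receptors. Its window held 22 peaks, or 11.1 per 100 kb (6.98 to 16.9), near the median of its size class. Of these, 3 lay in the neighbouring gene Stx8, and Ntn1 itself held 19, or 10.7 per 100 kb. The peaks of Ntn1 included the widest of the members after that of Slit2. One of 1853 bp (68214710 to 68216562) lay inside the gene 6.27 kb from the lower-coordinate end, and another of 1663 bp (68385717 to 68387379) covered the higher-coordinate end. The lower end itself had no peak within 5346 bp, and the longest run without a peak, 27.6 kb, followed the 1853 bp peak. Of the 19 peaks of the gene, 9 had their midpoint in the 50 kb that began 132.2 kb from the lower end. Both Ntn1 peaks were wider than the median start peak of 1165 bp, and the median of all 22 was 463 bp.

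Robo1 and Robo2, neighbours on chromosome 16 and the main Slit receptors of cortical neurons, each held 81 peaks over more than 1 Mb. Robo1 (72027518 to 73047491, 1020.0 kb) had 7.79 peaks per 100 kb (6.19 to 9.68) and Robo2 (73891976 to 75447443, 1555.5 kb) had 5.14 (4.08 to 6.39), a ratio of 1.51 (1.10 to 2.09). Among genes of 500 kb or more, with a median of 8.11 and quartiles of 4.84 to 11.9, Robo1 lay near the median and Robo2 in the lower part of that range. In both genes the widest peaks stood at the ends or at inner starts of transcription.

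At Robo1 the outermost start carried 2 adjacent peaks, of 790 bp (72027441 to 72028230) over the gene end and of 1460 bp (72028246 to 72029705) just inside. The RefSeq start in the promoter table lies 635.6 kb further into the gene, and a peak of 1456 bp (72662769 to 72664224) covered it. That peak also touched the end of the lncRNA gene Gm29908. It was exceeded in width at 22.1% of covered starts. By midpoint, 54 of 80 peaks lay in the 50% of the gene farther from the outer start, and the longest run without a peak, 91.9 kb, lay between the outer and the inner start.

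At Robo2 all 3 starts lay in a peak, and the inner ones lay in the wider peaks. The peak over the outer start was 622 bp (75446990 to 75447611), narrower than at 89.8% of covered starts. The start 354.7 kb into the gene measured from its outer end had a peak of 1228 bp (75092467 to 75093694), and the start 1035.6 kb into it had 1304 bp (74411351 to 74412654). These are the 2 widest of the 81 peaks, whose median was 349 bp. Counted from the outer start, the stretch between 80% and 90% of the gene's length held 17 of 80 peaks. The longest run without a peak, 87.4 kb, lay upstream of the middle start. The lower-coordinate end, which is the 3′ end, had no peak within 9774 bp.

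Dcc and Unc5d are the netrin receptors of the set. Unc5d (chromosome 8, 28646717 to 29219671, 573.0 kb) held 58 peaks, or 9.78 per 100 kb (7.43 to 12.6), and Dcc (chromosome 18, 71253613 to 72351228, 1097.6 kb) held 61, or 5.46 per 100 kb (4.17 to 7.01). The ratio of Unc5d to Dcc was 1.79 (1.23 to 2.61). At Dcc the widest peak, 1241 bp (72350191 to 72351431), covered the higher-coordinate end, and the 10% of the gene next to that end held 14 of 59 peaks. The next widest, at 774 bp, lay deep inside the gene. The lower end of Dcc had no peak within 2746 bp, and its longest run without one was 78.9 kb. At Unc5d the higher-coordinate end was covered by a peak of 980 bp (29219062 to 29220041), with peaks of 268 and 386 bp beside it inside the gene. Its widest peak, 1029 bp, lay 131.2 kb inside. The opposite part of Unc5d was the densest, with 24 of 57 peaks in the 20% of the gene next to the lower-coordinate end, although that end had no peak within 3947 bp.

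Robo3 and Robo4 lie next to each other on chromosome 9 and are transcribed toward each other, so their windows overlap and share peaks. Robo3 (37416045 to 37433436, 17.4 kb) had 8 peaks in its window and 6 in the gene. Robo4 (37401902 to 37414023, 12.1 kb) had 3 peaks in its window and 1 in the gene. All 3 peaks of the Robo4 window were also in the Robo3 window, and 2 of them lay inside Robo3 itself. With each counted only for the nearest gene, Robo3 had 7 peaks and Robo4 had 1.

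At the Robo3 start a peak of 453 bp (37432762 to 37433214) covered the start and a peak of 173 bp (37433240 to 37433412) lay upstream within the gene bounds, 24 bp from its outer end. A peak wider than that over the Robo3 start was found at 94.4% of covered starts. Robo4 had no peak within 1000 bp of either end. The nearest peak to its RefSeq start was 4502 bp away, a 250 bp site inside the gene (37406474 to 37406723), and the nearest to its other end was 4809 bp away, inside Robo3. Robo4 was the only member without a peak at an end, and it was the only one whose RefSeq start was not in a peak among those that could be matched.

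With 3 peaks at Robo4, no difference in density from Robo1 or Robo2 was detectable. Robo1, Robo2 and Robo3 together had 6.41 peaks per 100 kb (5.48 to 7.45), and Robo4 had 9.34 (1.93 to 27.3), a ratio of 0.686. For single genes the ratio to Robo4 was 0.834 for Robo1 (0.275 to 4.13), 0.550 for Robo2 (0.182 to 2.73) and 2.29 for Robo3. The joint ratio and that for Robo3 have no interval, because the 3 peaks of Robo4 are counted on both sides. Of protein-coding genes of 10 to 20 kb, 42.4% had at most 3 peaks in the same window. When shared peaks counted for the nearest gene only, the ratio of the 3 other genes to Robo4 was 2.05, on the other side of 1. That setting left Robo4 with 1 peak but kept the full length of its window, part of which lies in Robo3. For gene bodies alone the ratio was 0.776, on the same side as 0.686. Robo4 had no end peak, whereas 2942 of 3910 genes of 10 to 20 kb (75.2%) have one. The lack of one is thus the less common case at its size, but it is not rare.

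**Figure D3:**
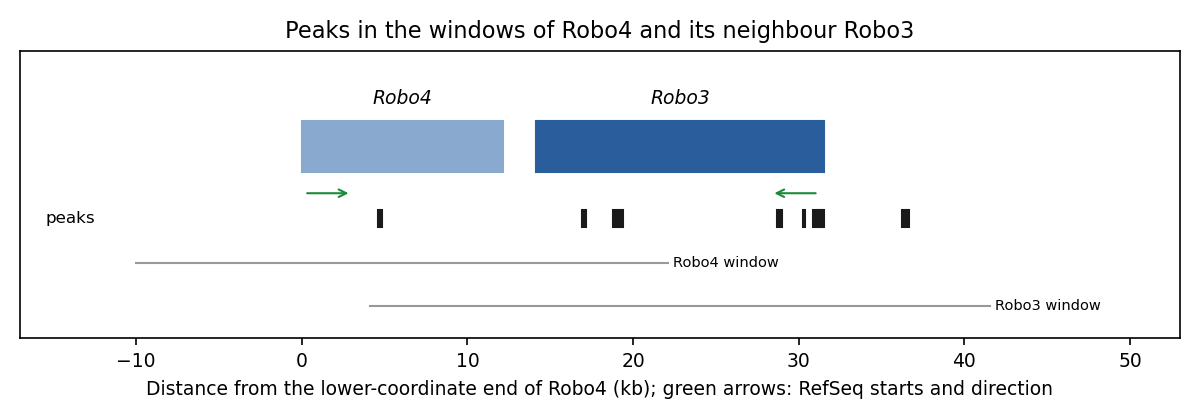
The Robo3 and Robo4 genes (bars), their RefSeq starts with direction (arrows), all consensus peaks of the windows (black boxes, to scale) and each gene with 10 kb either side (grey lines), in kb from the lower-coordinate end of Robo4. Peaks stand at the start of Robo3 and none stands at either end of Robo4.

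Over all members, 9 of 10 had a peak within 1000 bp of an end, against 70.4% of protein-coding genes. For the 8 members of 100 kb or more the count was 8, against 86.9% of genes of that size, and for Robo3 and Robo4 it was 1 of 2, against 75.2% of genes of 10 to 20 kb. The count for the long members is close to its background and is not a result about them. With peaks of at least 500 bp the count was 7 of 10, against 63.2%; Slit2 and Robo3 were the further members without such a peak, and the wide peak of Slit2 lies over a start 1.9 kb inside the outermost end.

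Peak widths also differed between the roles when peaks were pooled, but the genes of the roles overlapped. Of the distinct peaks of ligand genes, 41.1% were at least 500 bp wide, and of those of receptor genes 27.7%, against 38.3% of all nuclear peaks. Medians were 437 bp for ligands, 386 bp for receptors and 425 bp for all nuclear peaks. By gene the share of peaks of at least 500 bp was 45.9% for Slit1, 41.6% for Slit3, 40.9% for Ntn1, 26.1% for Slit2, 32.8% for Unc5d, 32.1% for Robo1, 25.9% for Robo2, 21.3% for Dcc, 1 of 8 peaks for Robo3 and 1 of 3 for Robo4. Slit2 was thus closer to the receptor genes than to the other ligands, and whether width goes with role was not tested. Over all members 24 of 496 peaks (4.84%) were at least 1000 bp wide, against 8.21% of all nuclear peaks.

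**Figure D4:**
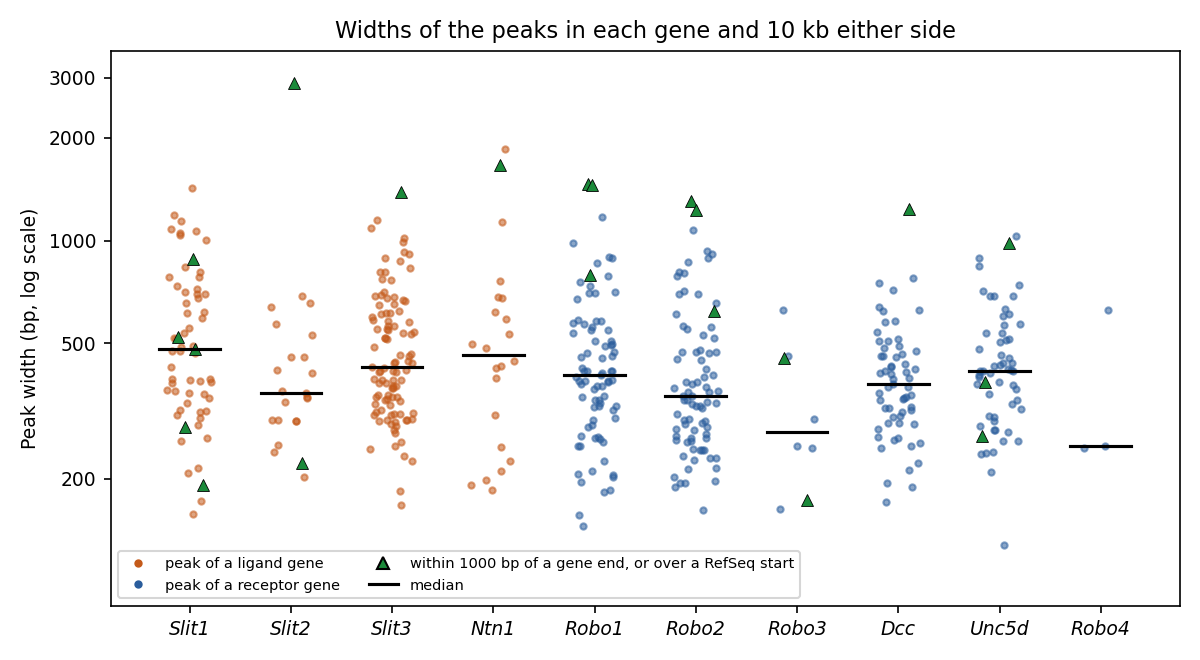
Width of every peak in each gene and 10 kb either side (log axis), with the median as a black line and triangles for peaks within 1000 bp of a gene end or over a RefSeq start. The widest peak, 2896 bp, stands over the Slit2 start, and the 3 Robo4 peaks measure 247, 250 and 625 bp with none at an end.

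Each gene was also set beside its own surroundings, and 7 of 10 members had more peaks per length than the 500 kb on each side, against 48.2% of protein-coding genes. Of the 8 members of 100 kb or more it was 6, against 61.7% of genes of that size. For 5 of these 8, against 26.5% of such genes, the counting interval of the ratio lay above 1: Slit1 (36.0 in the window against 15.3 per 100 kb around it, ratio 2.35, interval 1.72 to 3.19), Unc5d (9.78 against 4.20, 2.33, 1.54 to 3.55), Dcc (5.46 against 2.90, 1.88, 1.19 to 3.04), Robo1 (7.79 against 4.20, 1.85, 1.26 to 2.76) and Slit3 (16.6 against 11.9, 1.40, 1.06 to 1.84). The share of 26.5% is not matched in length or peak count, and an interval clears 1 more readily with more peaks. Genes of 100 kb or more had a median of 23 peaks and those of 500 kb or more 64. Unc5d, Dcc, Robo1 and Slit3 are of the longer class, so the 5 of 8 is a description only. Dcc, Robo1 and Unc5d stood in regions of few peaks, with 2.90 to 4.20 per 100 kb around them. Slit2 (4.20) and Robo2 (5.2) did so too, and the ratio of Slit2 was not below that of Slit3. The ratio was 1.58 for Slit2 (0.907 to 2.69), 1.49 for Robo3 (0.629 to 3.01), 0.989 for Robo2 (0.689 to 1.43), 0.719 for Ntn1 (0.438 to 1.13) and 0.631 for Robo4 (0.129 to 1.88). These intervals include 1.

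Other genes of the pathway were read from lists of its known components. Of 12 further ligands and ligand-like genes, 11 had a peak at an end (70.4% of protein-coding genes), with a median of 20.3 peaks per 100 kb, against 10.2 over all protein-coding genes. The densest were Ntng2, a membrane-anchored netrin (43.6), Flrt1, of a family that binds Unc5 receptors (39.5), and Rgma, a ligand of Neo1 (26.4), and Ntn3 was the gene without an end peak. All 7 further receptors had an end peak, against 86.9% of genes of 100 kb or more and 70.4% of all protein-coding genes. This small count describes the list only. The median of these receptors was 27.0 peaks per 100 kb. Unc5a (35.9), Dscaml1 (31.5) and Plxna1 (28.7) were the densest. Within the Unc5 family Unc5d had 9.78 peaks per 100 kb, above Unc5c at 6.16 and below Unc5b at 27.0 and Unc5a. Dcc had 5.46 peaks per 100 kb, and its closest relative Neo1 had 7.70.

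All 23 intracellular genes had an end peak, against 86.9% of genes of 100 kb or more and 70.4% of all protein-coding genes, with a median of 16.6 peaks per 100 kb. The densest were the kinase gene Fyn (35.7), the tubulin gene Tubb3 (32.8) and Trio, which acts downstream of Dcc (32.4). The Slit-Robo GTPase-activating proteins Srgap3, Srgap1 and Srgap2 had 18.8, 18.5 and 14.1. The median of the 6 member receptors, 8.56, lay below that of each of these lists. The lists differ in gene length, with medians of 48.9 kb for the ligands, 161.9 kb for the receptors and 118.8 kb for the intracellular genes, so this is a description only.

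Robo4 was read beside other endothelial genes. An end peak was present for 8 of 15 endothelial markers and for 70.4% of protein-coding genes, and their median was 8.66 peaks per 100 kb, against 10.2. Robo4 had no end peak either, and its window density of 9.34 (1.93 to 27.3) lay above the median of the list. That density rests on 3 peaks, of which 2 lie inside Robo3. With shared peaks given to the nearest gene, Robo4 kept 1. The 7 markers without an end peak were Egfl7 (9.49 peaks per 100 kb), Emcn (9.09), Pecam1 (8.63), Esam (6.62), Mmrn2 (6.15), Tek (3.85) and Tie1 (0). By the window count Robo4 was nearer to the denser of these 7 than to Tek and Tie1. Its place among them depends on how the peaks inside Robo3 are counted. In alphabetical order the first without an end peak were Egfl7, Emcn and Esam. Ecscr (17.0), Erg (16.2) and Kdr (13.6) were the densest, and each had an end peak, so the endothelial list was not uniform. Of 13 markers of cortical neurons, the labelled cell type, 12 had an end peak and the median was 16 peaks per 100 kb.

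**Figure D5:**
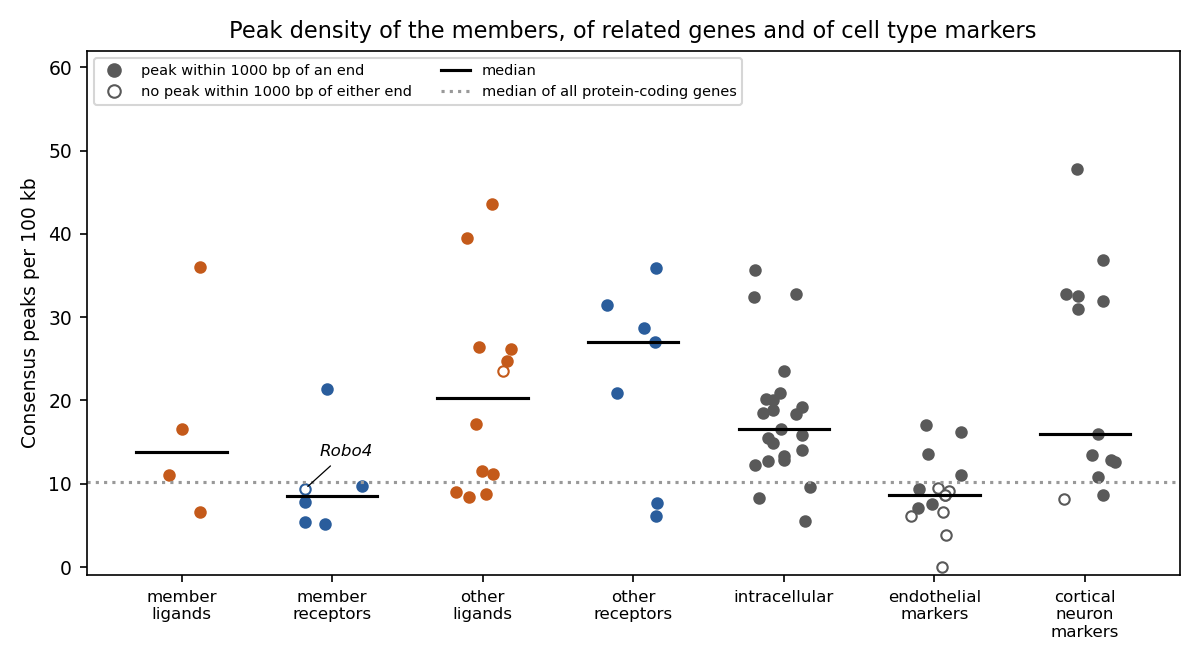
Peaks per 100 kb of each gene and 10 kb either side for the member ligands and receptors, other guidance genes and marker lists. Open circles have no peak within 1000 bp of either end, black lines are medians, and the dotted line is the median of all protein-coding genes, 10.2; Robo4 is the open circle among the member receptors.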

How the data were processed

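The file deposited by the authors is 1 BED list of consensus ATAC-seq peaks (position, name and score), with no value per sample. Per the submitters' processing notes, MACS2, deepTools and MultiQC were used with the build mm10, and MSPC, which combines replicate calls, appears in the peak names. The aligner, versions, thresholds and the samples that entered, of 18, are not stated in the sources used. The score deposited by the authors is at its ceiling of 1000 for all but 7 member peaks (1.41%, against 1.53% of nuclear peaks), and it was not used. No depth is given, so its precision is unknown.

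Genes were placed by their outermost RefSeq ends (GRCm38.p6, the mm10 assembly), without 17 genes that have no chromosome and 348 on scaffolds; exons were not used. A peak counted when any base lay in the window. Planned tests between knockdown groups were not run, because the file holds no counts. Member values have exact Poisson intervals and ratios without shared peaks exact conditional (Clopper-Pearson) intervals at 95%. No p-value is given, because members and lists were chosen with earlier results of these data known. Window counts were checked on simulated peaks. Named are all members with the peaks at their ends and, for most, their 2 widest peaks and their longest run without a peak. Other genes in their windows are named where they overlap a peak, with some that do not. Of each list, up to 3 of the densest and 3 without an end peak are named. Of the others, the genes denser than Slit1 are marked so in the text, and those of Unc5b, Unc5c, Neo1, the Srgap genes, Pecam1, Mmrn2, Tek and Tie1 were named after their values were seen. Alternatives were flanks of 0, 2 and 50 kb, peak midpoints, peaks of at least 500 bp and peaks away from gene ends. Further ones were shared peaks given to the nearest member gene, end windows of 0, 500 and 2500 bp, and leaving out each gene. Intervals used scipy 1.17.1, tables pandas 2.3.3 and numpy 2.4.6, plots matplotlib 3.10.9, all under Python 3.11.15.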

Additional observations from a re-analysis of the deposited data

How the results depend on the processing

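No paired analysis was possible because the list holds no values per sample, and for the same reason no culture could be left out. The total of 499 peaks, which counts shared peaks for each gene, lay between 481 and 565 under other flanks, midpoints, nearest-gene counting and peaks away from gene ends, and was 166 with peaks of at least 500 bp. With those wide peaks the medians were 5.74 peaks per 100 kb for ligands and 2.59 for receptors, and the ratio of ligands to receptors was 3.49. That ratio lay between 2.18 and 2.42 under other flanks and between 1.91 (without Slit1) and 2.84 (without Slit2) when a gene was left out, and it stayed above 1 in each of these settings. The count of members with an end peak was 7 to 9. The ratio of the other Robo genes to Robo4 was 0.776 for gene bodies and 2.05 with shared peaks given to the nearest gene. Of 70 counts of single members under the alternatives, 55 were within 1.5 times the reported count. Of the 15 others, 10 came from wide peaks alone and 5 concerned Robo4 or Robo3, whose windows hold few peaks: Robo4 had 1 peak with flanks of 2 kb or none and 18 with flanks of 50 kb, and Robo3 had 15 with flanks of 50 kb. The depth behind the peaks is unknown, and a short gene with few peaks limits what can be said of Robo4.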

Other observations

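Marker lists of other brain cell types were counted in the same way. Of 6 astrocyte markers, 4 had a peak at an end, with a median of 20.1 peaks per 100 kb. Of 6 oligodendrocyte lineage markers, 4 had one, with a median of 14.2, and of 5 microglia markers, 3 had one, with a median of 15.0. Against 70.4% of protein-coding genes these small counts describe the lists only.

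Of the further microRNA genes in the member windows, Mir691 inside Robo2, Mir6406 inside Ntn1 and Mir8091 beside Slit1 overlapped no peak either, and the nearest peaks lay 5673, 4330 and 2928 bp away. Robo2 also holds the tRNA gene n-TIaat1, whose nearest peak was 12738 bp away. Among lncRNA genes inside the receptors, Gm52247 in Robo1 overlapped 3 peaks and Gm52248 in Robo1 overlapped 1. Gm30116 in Robo2 overlapped 2 and Gm32505 in Unc5d overlapped 3, while Gm52242 in Robo2 overlapped none.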
